A study of Mus musculus with 3 samples.

Results

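The comparison described here is DKK2 in high glucose against high glucose alone, in primary cultures that the labels call endothelial cells from the cavernous tissue of the C57BL/6 mouse penis. It rests on 2 of the 3 one-colour microarrays of the study, both from cells kept for 48 h in 30 mmol glucose, 1 of them with added DKK2 protein; the remaining array held cells in 5 mmol glucose. The medium of all groups held bovine serum, heparin and vascular endothelial growth factor A, and no dose of DKK2 stands in the labels. Each array carried a pool of RNA from 3 samples, so each condition had 1 array, no difference has a replicate check, and no p-value is given. Genes were the members of the comparison: of 20886 genes named on the array, 17825 were counted because the probe used for them was well above background on both arrays.

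DKK2 (Dickkopf 2) is a secreted protein that binds the Wnt co-receptors LRP5 and LRP6 and the Kremen receptors. Wnt ligands signal through Frizzled receptors and these co-receptors to stabilise beta-catenin, which drives TCF/LEF target genes such as Axin2, and Dickkopf proteins are known mainly as antagonists of this route, DKK2 acting as agonist or antagonist by context. The cavernous endothelium lines the blood spaces of erectile tissue, where endothelial nitric oxide relaxes the surrounding smooth muscle.

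Signals are given as a scaled signal, the scanner's processed signal divided by its 75th percentile on that array, times 1000. A difference is log2 of the signal with DKK2 minus log2 of the signal in high glucose, and a gene is called higher or lower where the arrays were at least 2-fold apart. The 75th percentile itself was 2380 in high glucose and 2417 with DKK2, 84.7% and 84.0% of probes were well above background, and no spot was saturated. The scanner's error model gave a median technical SD of 0.20 log2 units for a difference, which covers the spots and not the cultures. Both arrays lay on 1 slide, and position on the slide and condition cannot be told apart.

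With DKK2, 905 of the 17825 genes were higher (5.08%) and 865 were lower (4.85%). The counts of called list members further on are to be read beside these shares. With a normexp background correction, which shrinks the differences of dim probes, 508 were higher and 476 lower. The median difference over all genes was 0.08, and 10267 genes lay above 0. The large differences leaned to the lower side: at least 4-fold apart were 108 genes higher and 165 lower, and at least 8-fold apart were 18 higher and 45 lower. Bright genes were called less often. With the genes divided into 5 equal groups by signal, 2.24% of the brightest group were higher and 1.65% lower, against 6.98% and 6.76% of the dimmest group. Among called genes, 335 had another probe that was well above background on both arrays, and in 302 of them every probe had the same sign. The median difference of those other probes was 1.103 for the 164 higher genes and -0.88 for the 171 lower genes.

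**Figure D1:**
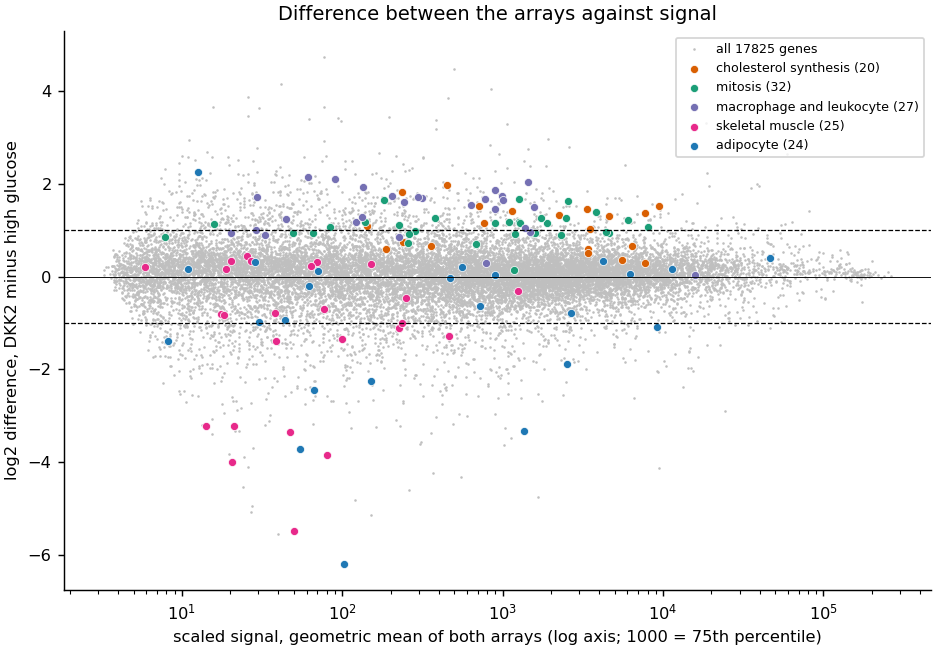
Each point is a gene, placed by its scaled signal (geometric mean of both arrays, log axis) and by its log2 difference (DKK2 minus high glucose); coloured points are members of 5 gene lists, and dashed lines mark 2-fold. Cholesterol synthesis, mitosis and macrophage genes lie above 0, and the lowest point is the adipocyte gene Adipoq, at -6.20.

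**Figure D2:**
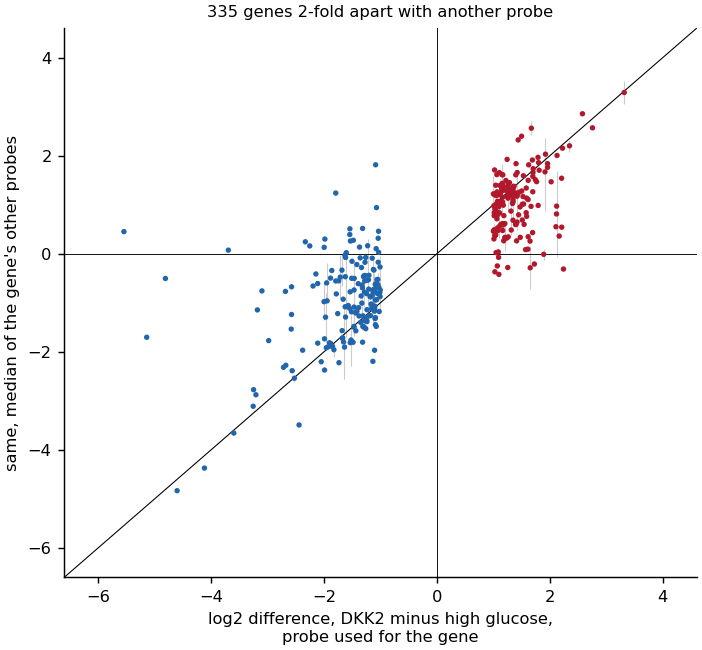
For 335 genes at least 2-fold apart, the difference of the probe used (x axis) is set against the median difference of the gene's other probes (y axis; bars span their lowest and highest), both in log2 units; the diagonal marks equality. Most points lie in the quadrants of equal sign, and a few lower genes have other probes above 0.

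The labelled cell type was checked against its markers before the other comparisons. Of 30 endothelial identity genes, 28 were measured on both arrays, among them Pecam1, 155 in high glucose and 179.8 with DKK2, the VE-cadherin gene Cdh5, 238 in high glucose and 129 with DKK2, and the von Willebrand factor gene Vwf, 57.9 in high glucose and 86.6 with DKK2. The transcription factor gene Erg and Podxl were not well above background on both. Markers of other cell types were measured as well: the smooth muscle actin gene Acta2 was at 21043 in high glucose and 6603 with DKK2, the fibroblast receptor gene Pdgfra at 18155 in high glucose and 11836 with DKK2, and decorin, Dcn, at 209161 in high glucose and 144275 with DKK2. Signals of different probes do not rank these genes, and in RNA of a whole culture fewer cells of a type and less RNA per cell cannot be told apart.

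Marker lists of other cells differed between the arrays. Of 27 measured macrophage and leukocyte genes, 20 were higher with DKK2, none was lower and all 27 lay above 0, with a median of 1.54. Their summed scaled signal was 24170.0 in high glucose and 39235 with DKK2, of which Itgam (CD11b), the member with the smallest difference, made up 15704 in high glucose and 16116 with DKK2. The macrophage transcription factor gene Spi1 was dim, at 2.90 in high glucose and 4.91 with DKK2, and well above background with DKK2 only. Its difference was at least 1.62-fold, a limit that does not reach 2-fold. Cd163 was not measured on both arrays. The skeletal muscle list summed to 4802 and 2638, with 10 of 25 genes lower. Fibroblast genes summed to 923422 and 855518, with 9 of 29 lower, and smooth muscle genes to 120307 and 80578, with 4 of 24 lower and 1 higher. The adipocyte sums were 91476 and 89007, with 8 of 24 lower and 1 higher. The adipocyte median was -0.42, but -0.11 with normexp background correction and -0.04 with a signal of at least 100 on both arrays. Each of these sums follows its brightest probes and does not describe its list. The part of these cell markers in the results that follow was not tested.

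The genes with the largest upward differences were a mixed group of secreted, membrane and stress genes. The organic anion transporter gene Slco4a1 stood at 105 in high glucose and 2335 with DKK2 (22.2-fold), and Ranbp3l, a nuclear export factor for SMAD proteins, at 14.9 in high glucose and 397 with DKK2 (26.7-fold). With normexp background correction the log2 difference of Ranbp3l went from 4.74 to 3.18 and that of Slco4a1 from 4.47 to 4.03, which turns their order, so the folds of dim probes are loose. Il1rl1 encodes the receptor of interleukin 33. It was bright on both arrays, at 5903 in high glucose and 58896 with DKK2 (9.98-fold, technical SD 0.20 log2 units), and its other probes gave differences of 3.05 to 3.53. The cholecystokinin gene Cck was also far above background, at 23767 in high glucose and 148752 with DKK2, 6.26-fold apart. Other neural signalling genes among the 30 largest upward differences were the CGRP gene Calcb (30.6 against 314), the substance P receptor gene Tacr1 (67.3 against 423), the irritant channel gene Trpa1 (119 against 1232) and the kainate receptor gene Grik1 (5.67 against 36.3), each given as scaled signal in high glucose against DKK2. The basophil protease gene Mcpt8 was at 127 in high glucose and 1151 with DKK2, the proliferin gene Prl2c5 at 552 in high glucose and 3728 with DKK2 and the steroid-metabolising Akr1c18 at 378 in high glucose and 2371 with DKK2. Prl2c5 has near-identical family members that its probe may also read.

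The largest downward differences included genes of adipose tissue, muscle and the acute phase. Adiponectin, Adipoq, had the largest difference of the genes measured on both arrays, with 875 in high glucose and 11.9 with DKK2 (73.6-fold lower). Its log2 difference was -6.20, and -4.18 with normexp background correction. The fast muscle light chain gene Myl1 was at 334 in high glucose and 7.52 with DKK2. Haptoglobin, Hp, was at 1585 in high glucose and 84.2 with DKK2 and the serum amyloid gene Saa2 at 153 in high glucose and 4.95 with DKK2. The sulfotransferase gene Sult1a1 stood at 1288 in high glucose and 53.1 with DKK2, and Ecrg4, a secreted peptide gene, at 8676 in high glucose and 321 with DKK2. Dlk1, an inhibitor of fat cell formation, was at 39096 in high glucose and 2253 with DKK2 (17.4-fold lower, technical SD 0.20), with another probe at -4.37. Not all probes gave the same size: the prolactin receptor gene Prlr differed by -4.81 with the probe used and by -0.50 with another.

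**Figure D3:**
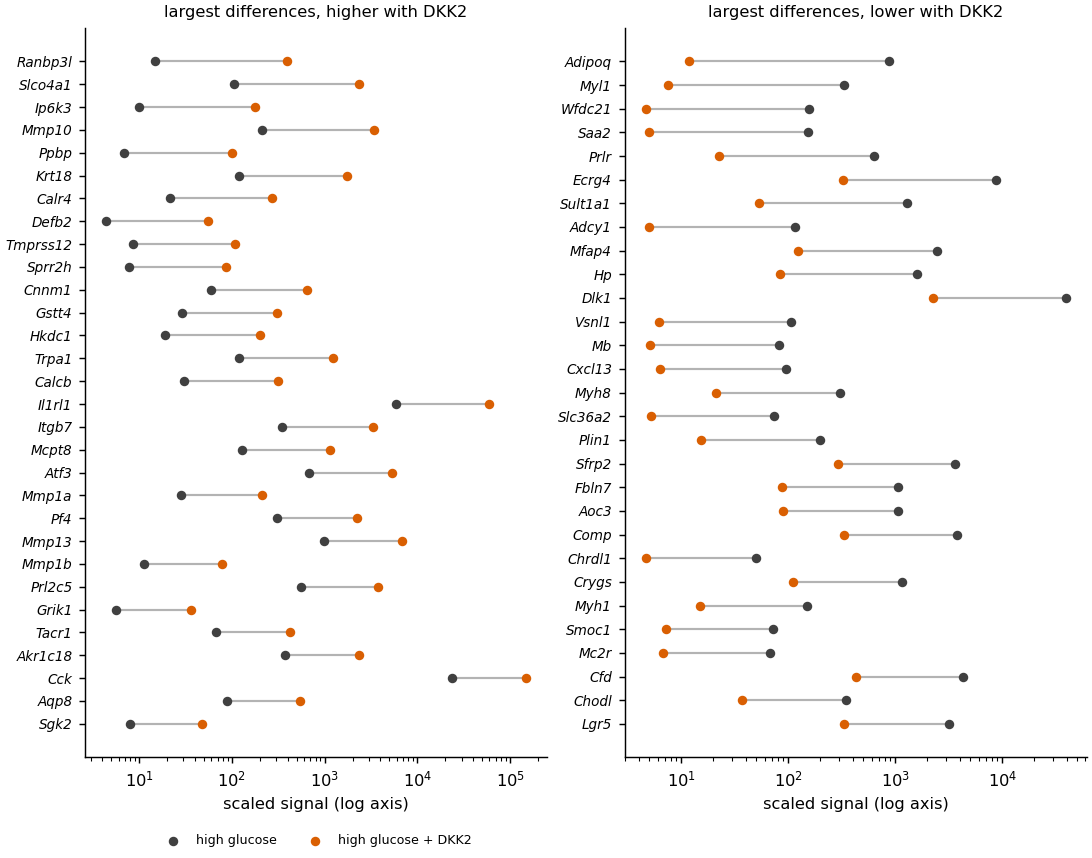
Scaled signals (log axis) of the 30 genes with the largest upward differences and of 29 of the 30 with the largest downward differences; the dark point is the high glucose array, the orange point the array with DKK2, and the line joins both. Il1rl1 and Cck lie far to the right in the left panel and Dlk1 in the right, apart from the other genes.

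Cholesterol synthesis genes were higher together. Of 20 measured genes, 12 were higher with DKK2 (60.0%, against 5.08% of all genes), none was lower and all 20 lay above 0, with a median of 1.12 against 0.08 over all genes. By another probe, measured for 6 of them, the median was 0.69. Mvd, which makes isopentenyl diphosphate in the mevalonate part of the route, was at 227 in high glucose and 897 with DKK2 (3.95-fold), and Lss, which closes the sterol rings, at 124 in high glucose and 439.7 with DKK2 (3.53-fold). The squalene epoxidase gene Sqle was at 2452 in high glucose and 5027 with DKK2 (2.05-fold). The farnesyl diphosphate synthase gene Fdps stood at 4819.8 in high glucose and 12434 with DKK2 and Idi1, the isomerase before it, at 2917 in high glucose and 7209 with DKK2. In the late steps Msmo1 (5585 against 16051), Hsd17b7 (419 against 1212), Sc5d (1411 against 3565) and Nsdhl (510.4 against 1139) were higher as well, in scaled signal of high glucose against DKK2. Fdft1, which makes squalene, was at 702 in high glucose and 1868 with DKK2 with the probe used, and another of its probes differed by 0.26. The synthase gene Hmgcs1 (0.36) and Ebp (0.28) had the smallest log2 differences of the list. The macrophage markers given above were higher on the same array.

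Sterol uptake and control genes followed in part. Of 22 measured genes, 5 were higher and 1 was lower, with a median of 0.38. Among the higher ones, the sterol carrier gene Stard4 was at 291 in high glucose and 690.1 with DKK2 and the lipoprotein receptor gene Lrp8 at 72.7 in high glucose and 149 with DKK2. The transporter gene Abcg1, which moves cholesterol out of cells, was at 112 in high glucose and 544 with DKK2 (4.87-fold). Its companion Abca1 lay on the other side of 0, at 3014 in high glucose and 1863 with DKK2, and apolipoprotein E, Apoe, was lower, at 18607 in high glucose and 4544 with DKK2 (4.09-fold). Srebf2, the master regulator of the route, differed by 0.41 and Srebf1 by 0.18, both under 2-fold. Of 20 fatty acid synthesis genes, Acsl4 (2424 against 5595), the desaturase gene Scd2 (9249.9 against 21125) and the citrate carrier gene Slc25a1 (2491 against 5322) were higher, Thrsp (21.98 against 6.45) was lower, and 17 lay above 0. The synthase gene Fasn differed by 0.65. Among 21 fatty acid oxidation genes only the thioesterase gene Acot1 was called, higher at 265 in high glucose and 661 with DKK2, and the median was 0.02. That is 4.76% higher, near the 5.08% of all genes.

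**Figure D4:**
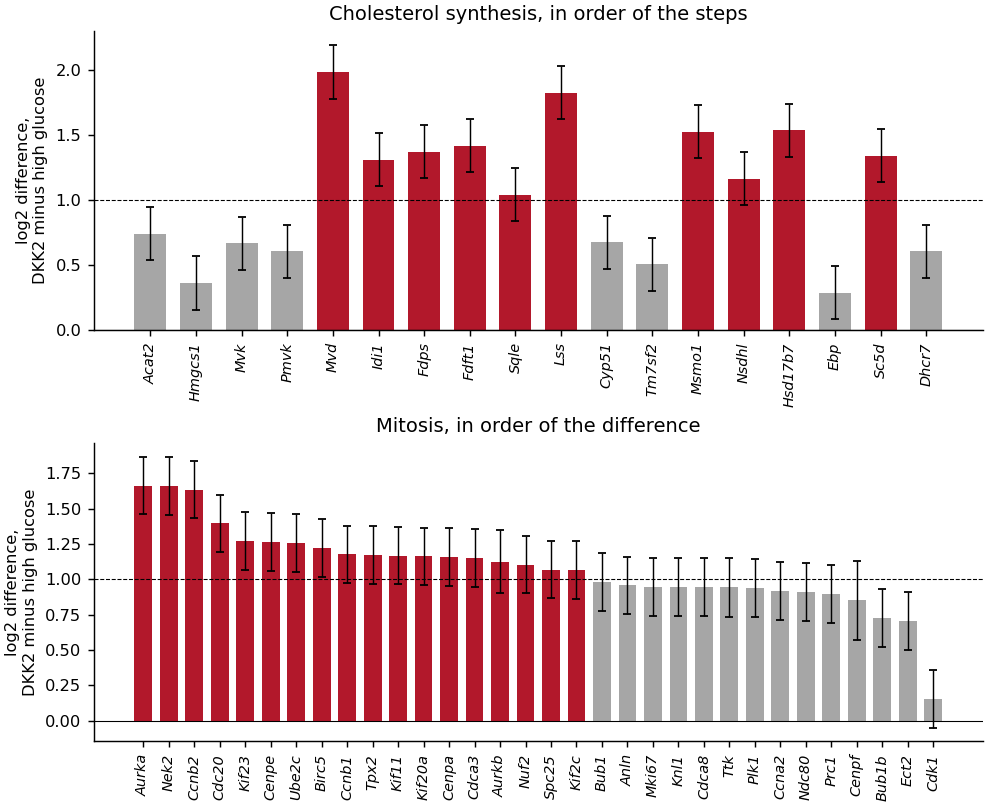
Log2 differences (DKK2 minus high glucose) of 18 cholesterol synthesis genes, in the approximate order of the steps, and of 32 mitosis genes, in order of the difference; bars in red are at least 2-fold, the dashed line marks 2-fold and error bars are the technical SD of 1 pair of arrays. Every bar is above 0, from 0.28 to 1.98 in the upper panel and from 0.15 to 1.66 in the lower.

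The promoters of these sterol genes are shown because cholesterol genes are known for CCAAT boxes, which NF-Y binds, and for sterol response elements, which SREBP proteins bind. Sequences come from RefSeq promoter windows of build GRCm38.p6 (250 bases before to 50 after each start), and motifs were searched on both strands. The letters CCAAT were found in 14 of the 15 cholesterol genes with a promoter in the table, against 42.3% of 14084 measured genes and 41.1% of all 27025 genes with a promoter there. A sterol response element in the form TCACNCCAC was found in Hmgcs1 alone among these 15 genes, against 1.45% of measured genes. The 2 motifs overlapped in 1 of 215 matches of TCACNCCAC. A match describes letters only, and the table does not hold every member. For 6 of the 7 higher genes with a CCAAT box, the stretch from the first to the last box follows with up to 30 bases on either side, 5′ to 3′ on the gene's strand and ending at or before the start, with CCAAT or its reverse complement in capitals.
Mvd: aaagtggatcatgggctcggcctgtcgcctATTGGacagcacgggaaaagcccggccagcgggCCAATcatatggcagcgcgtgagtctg
Lss: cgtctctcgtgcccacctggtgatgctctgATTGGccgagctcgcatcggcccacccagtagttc
Hsd17b7: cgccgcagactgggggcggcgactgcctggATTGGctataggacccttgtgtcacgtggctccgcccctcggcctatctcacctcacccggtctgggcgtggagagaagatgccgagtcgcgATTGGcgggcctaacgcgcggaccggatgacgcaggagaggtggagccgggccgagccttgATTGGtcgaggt
Msmo1: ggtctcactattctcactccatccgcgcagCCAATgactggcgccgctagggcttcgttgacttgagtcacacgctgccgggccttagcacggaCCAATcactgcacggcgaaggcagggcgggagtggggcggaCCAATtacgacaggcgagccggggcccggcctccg
Sc5d: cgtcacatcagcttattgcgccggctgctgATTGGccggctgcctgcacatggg
Idi1: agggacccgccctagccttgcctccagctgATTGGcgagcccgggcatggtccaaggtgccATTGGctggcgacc

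The positions, in the same order, were chr8:122443423-122443512 (minus strand), chr10:76531513-76531577 (plus strand), chr1:169969206-169969400 (minus strand), chr8:64733599-64733768 (minus strand), chr9:42264301-42264354 (minus strand) and chr13:8885531-8885605 (plus strand). The last CCAAT box lay 22, 57, 7, 50, 19 and 9 bases before the start. The number of boxes ranged from 1 in Lss and Sc5d to 3 in Hsd17b7 and Msmo1.

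Mitosis genes formed the next group. All 32 measured genes lay above 0, 18 were higher with DKK2 (56.2%) and none was lower, with a median of 1.09. The kinase gene Aurka, which builds the spindle poles, was at 712 in high glucose and 2255 with DKK2 (3.17-fold), and the cyclin gene Ccnb2 at 1447 in high glucose and 4495 with DKK2 (3.11-fold). Cdc20 and Ube2c, which lead the anaphase complex to its targets, were at 2336 in high glucose and 6151 with DKK2 and at 1121 in high glucose and 2679 with DKK2. Survivin, Birc5, was bright, at 3941 in high glucose and 9198 with DKK2. The motor genes Kif23 (243 against 586), Kif11 (91.97 against 207), Kif20a (1262 against 2823), Kif2c (58.3 against 122) and Cenpe (1605 against 3857) were higher, as were Nek2, Ccnb1, Tpx2, Cenpa, Cdca3, Aurkb, Nuf2 and Spc25, with log2 differences between 1.07 and 1.66, although another probe of Tpx2 differed by 0.59. The proliferation marker Mki67 was at 3330.0 in high glucose and 6414 with DKK2, just under 2-fold, and the mitotic kinase gene Cdk1 differed least (0.15). Genes of DNA replication differed less: 32 of 34 lay above 0 but 3 were higher, the licensing factor gene Cdt1 (2561 against 6295), Orc1 (27.8 against 64.3) and Mcm10 (382 against 808), and the median was 0.55. The cyclin gene Ccnd1 was at 21514 in high glucose and 33116 with DKK2 and Ccnd3 lay on the other side of 0, at 30092 in high glucose and 19540.1 with DKK2. Among 18 CDK inhibitor and quiescence genes only Cdkn1c (p57), which is imprinted, was called, and it was lower: 5720.3 in high glucose and 977 with DKK2 (5.86-fold). That is 5.56% lower, near the 4.85% of all genes. Cdkn1a (p21) differed by 0.35 and Cdkn1b (p27) by -0.43.

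Late cell cycle promoters are known for a cell cycle homology region beside CCAAT boxes. The letters TTTGAA of that region were found in 22 of 28 mitosis genes with a promoter, 78.6%, against 15.9% of measured genes and 20.2% of all genes with a promoter. CCAAT was also found in 22 of these 28 genes. In 22 of 2669 matches, TTTGAA overlapped a CCAAT. Among the 15 mitosis genes that were both called and in the table, TTTGAA was in 10, so called members did not hold it more often than the rest of the list. Not every match lies before the start. For the 3 genes with the largest differences among those with both motifs before the start, the stretch around them is printed with both in capitals, on either strand; this choice, like that of the protease promoters further on, was made after the values and motifs were seen.
Ccnb2: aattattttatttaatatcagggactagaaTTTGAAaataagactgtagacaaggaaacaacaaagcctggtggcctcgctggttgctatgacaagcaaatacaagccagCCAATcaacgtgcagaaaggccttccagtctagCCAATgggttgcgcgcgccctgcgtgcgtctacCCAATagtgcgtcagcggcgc
Cdc20: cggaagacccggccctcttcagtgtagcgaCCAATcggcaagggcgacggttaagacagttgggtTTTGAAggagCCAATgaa
Ube2c: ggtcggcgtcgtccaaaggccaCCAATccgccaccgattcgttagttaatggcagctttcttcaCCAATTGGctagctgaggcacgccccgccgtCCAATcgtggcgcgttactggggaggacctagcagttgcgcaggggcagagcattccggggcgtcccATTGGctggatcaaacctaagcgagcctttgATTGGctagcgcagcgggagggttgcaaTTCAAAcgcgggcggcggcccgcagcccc

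Their positions were chr9:70421555-70421751 (minus strand), chr4:118437344-118437426 (minus strand) and chr2:164769679-164769928 (plus strand), and TTTGAA ended 161, 12 and 23 bases before the start. In the replication list, TTTCCCGC, a form of the E2F site, was in 6 of 27 genes, 22.2%, against 1.93% of measured genes, and in none of the 3 called ones.

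In the lists of general growth machinery few genes were called, beside 5.08% higher and 4.85% lower of all genes. In the brightest group of genes the shares were 2.24% and 1.65%. At such shares lists of this size hold few called genes, so no result is read from their absence. None of 31 proteasome subunits was called, and 30 lay above 0 with a median of 0.30. None of 41 oxidative phosphorylation genes, 25 citrate cycle genes, 27 nucleotide synthesis genes or 19 tRNA synthetase genes was called, with medians of 0.21, 0.15, 0.27 and 0.20. Quantile normalization lowered the medians of oxidative phosphorylation and the citrate cycle to 0.09 and 0.06. By another probe those of nucleotide synthesis (measured for 9 members) and tRNA synthetases (3 members) were 0.01 and 0.57. The fumarase gene Fh1, at 6795 in high glucose and 3403 with DKK2, was the nearest to the limit. Among 30 ribosome biogenesis genes the helicase gene Ddx21 was higher, at 1132 in high glucose and 2378 with DKK2, but another of its probes differed by 0.02. Myc differed by -0.44.

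Glucose-using pathways included more called genes. In glycolysis, 6 of 23 genes were higher and none was lower, with a median of 0.51. The pyruvate kinase gene Pkm was at 9802 in high glucose and 37829 with DKK2 (3.86-fold) and Pgk1 at 17439.6 in high glucose and 42489.8 with DKK2 (2.44-fold). The glucose transporter gene Slc2a1 was at 10191 in high glucose and 22621 with DKK2, hexokinase 2, Hk2, at 416 in high glucose and 976 with DKK2, and the lactate exporter gene Slc16a3 at 538 in high glucose and 1301 with DKK2. Aldoc was higher as well (566 against 1514), and Pfkp had the lowest difference of the list (-0.80). Aldose reductase, Akr1b3, the first enzyme of the polyol pathway that is known for its activity in high glucose, was at 7016 in high glucose and 24279 with DKK2 (3.46-fold), and its relative Akr1b8 at 14685 in high glucose and 31856 with DKK2. Of 13 genes of the pentose phosphate and polyol routes, transaldolase, Taldo1, was the only other called, at 19178 in high glucose and 42729.6 with DKK2. Of 9 hexosamine genes Uap1l1 was higher (5404 against 12762), while the rate-limiting Gfpt1 differed by 0.08. The hypoxia list, which shares Slc2a1, had 4 of 22 higher, including Ankrd37 (234 against 774) and Egln3 (77.9 against 199), and Vegfa was at 3067 in high glucose and 4963 with DKK2. Hypoxia genes such as Adm (-0.49), Ndrg1 (-0.59) and Pdk1 (-0.35) lay below 0, and the list median was 0.24.

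In the Wnt pathway, the receptor and target lists held lower genes and no higher one. The co-receptor genes that DKK2 binds stayed within 2-fold: Lrp5 stood at 1349 in high glucose and 1507 with DKK2, Lrp6 at 9708 in high glucose and 5170.3 with DKK2, and Kremen1 at 2579 in high glucose and 2185 with DKK2. Kremen2 was near background, at 4.86 in high glucose and 4.63 with DKK2. The cells' own Dkk2 RNA was at 3845 in high glucose and 6995 with DKK2 (0.86), a measure of the RNA and not of the added protein. Of 23 measured genes in the receptor list, which also holds R-spondin ligand genes, 4 were lower (17.4%, against 4.85% of all genes). They were Lgr5, the R-spondin receptor, at 3182 in high glucose and 334 with DKK2 (9.52-fold), the Frizzled gene Fzd4 at 587 in high glucose and 136 with DKK2 (4.32-fold), and the R-spondin genes Rspo2 at 2343 in high glucose and 673 with DKK2 and Rspo3 at 2347 in high glucose and 1127 with DKK2. Fzd1 was close to the limit (12872 against 6741).

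Of 26 measured Wnt/beta-catenin targets and transducers, 7 were lower (26.9%, against 4.85% of all genes), with a median of -0.23. The lowest of them was Lgr5, given above, which is counted in both lists. Nkd1, a feedback inhibitor, was at 210.4 in high glucose and 48.7 with DKK2, the CCN family gene Ccn5 at 220.4 in high glucose and 34.3 with DKK2, and Apcdd1, a membrane inhibitor, at 79.1 in high glucose and 35.7 with DKK2. The transcription factor genes Tcf7l1 and Tcf7l2 were at 1198 in high glucose and 521 with DKK2 and at 1034 in high glucose and 490.1 with DKK2, the latter with other probes from -0.75 to -0.47. Tnfrsf19 was lower with the probe used (-1.48) and lay above 0 with another (0.28). Axin2, the most used readout of the pathway, was dim, at 32.02 in high glucose and 18.4 with DKK2, and within 2-fold (-0.80). The target genes Ccnd1 (0.62) and Cd44 (0.94) lay above 0, Myc (-0.44) and Lef1 (-0.65) below, and beta-catenin itself, Ctnnb1, differed by 0.17. With a signal of at least 100 required on both arrays, the median of this list was 0.00, so its sign depends on that filter. A TCF/LEF site in the form CTTTGAT was found in 2 of 16 targets with a promoter, 12.5%, against 3.48% of measured genes, and 1 of the 4 called targets in the table held it.

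Wnt ligands went both ways. Of 17 measured genes, Wnt10b (14.8 against 51.1), Wnt9a (481 against 1484), Wnt10a (42.7 against 107) and Wnt4 (75.02 against 152) were higher, and Wnt11 (226 against 48.7) and Wnt2 (9.99 against 4.05) were lower, with Wnt5a, within 2-fold, at 4240.4 in high glucose and 2581 with DKK2. The list median was 0.39, and -0.14 where a signal of at least 100 was required. Of 12 secreted antagonists, 9 lay above 0, with a median of 0.36, none was called higher and 2 were lower. The lower ones were Sfrp2, at 3596 in high glucose and 291 with DKK2 (12.4-fold), and Sfrp1, at 1259 in high glucose and 279.8 with DKK2 (4.5-fold). Dkk3 differed by -0.26. Dkk1 and Sost were well above background only with DKK2, at least 2.44-fold and 3.01-fold higher.

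BMP, IGF and YAP genes held large single differences. The BMP antagonist gene Grem1 was at 19335 in high glucose and 76714 with DKK2 (3.97-fold) and the stress cytokine gene Gdf15 at 2529.8 in high glucose and 13428 with DKK2 (5.31-fold). The BMP target gene Id2 was lower, at 3153 in high glucose and 1446 with DKK2, with Id1 and Id3 at -0.99 and -0.99 log2 units, just under 2-fold, and the inhibitory Smad6 was lower (1002 against 495). The ligand gene Bmp6 (232 against 113) and the antagonist gene Chrdl1 (49.8 against 4.72) completed the 4 lower of 30 genes. In the TGF-beta list 1 of 28 genes was called, a lower one (3.57%, near the 4.85% of all genes). It was Ltbp4, at 8480.2 in high glucose and 4164 with DKK2. In the IGF system the binding protein genes Igfbp2 and Igfbp3 were lower, at 497 in high glucose and 52.4 with DKK2 and at 12479.8 in high glucose and 3593 with DKK2, and Igf2bp1 was too (17.2 against 8.15). Of 20 YAP and CCN targets 4 were lower. Ccn2 (CTGF) was at 16215 in high glucose and 2643 with DKK2 (6.13-fold), Ccn1 (CYR61) at 8163 in high glucose and 2998 with DKK2, Amotl2 at 2924 in high glucose and 1131 with DKK2 and Arhgef17 at 3346 in high glucose and 1345 with DKK2. Ptpn14 was higher (303 against 712), and Yap1 itself differed by -0.20. The letters CATTCC of the TEAD site were in 11 of 14 of these genes with a promoter, 78.6%, against 15.2% of measured genes.

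Of 16 Notch genes 3 were lower and 1 higher, and of 12 Hedgehog genes 1 was lower and 2 were higher, against 4.85% lower and 5.08% higher of all genes. Jag1 was lower (645 against 209), as were Hey1 (90.2 against 40.5) and Lfng (14.7 against 7.2), while Jag2 was higher (31.1 against 77.3). The Hedgehog co-receptor gene Boc was at 1819.9 in high glucose and 357 with DKK2 (5.1-fold lower), and Dhh (261 against 596) and Hhip (107 against 239.8) were higher.

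**Figure D5:**
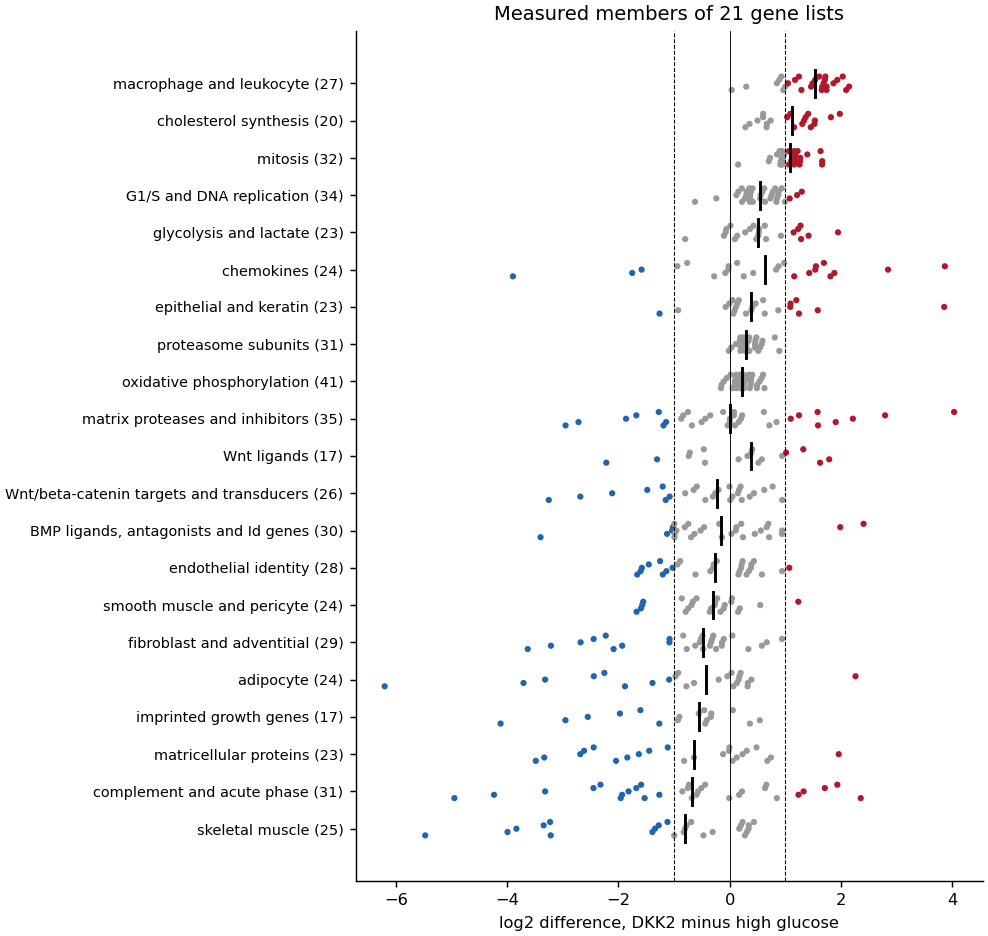
Log2 differences (DKK2 minus high glucose) of the measured members of 21 gene lists, with the number of members in parentheses; red points are at least 2-fold higher, blue points at least 2-fold lower, grey points in between, and the black mark is the list's median. Medians run from 1.54 for macrophage and leukocyte genes to -0.80 for skeletal muscle genes (-0.45 with normexp background correction).

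Immune lists differed in direction: macrophage genes were higher in 20 of 27 cases, chemokines in 9 of 24, and complement and acute phase genes were lower in 12 of 31. Of 12 chemokine receptors none was higher and 2 were lower. Higher macrophage genes included the surface proteins Adgre1 (F4/80), 111 in high glucose and 372 with DKK2, Cd14, 711 in high glucose and 2910.3 with DKK2, and the mannose receptor Mrc1, 139 in high glucose and 426 with DKK2. The signalling adaptors Tyrobp and Fcer1g stood at 543 in high glucose and 1817 with DKK2 and at 434 in high glucose and 1377 with DKK2, and lysozyme, Lyz2, at 541 in high glucose and 1493 with DKK2. The Fc receptor genes Fcgr2b (28.99 against 128) and Fcgr3 (43.7 against 187) were higher, and these genes are close in sequence. The receptor of CSF1, Csf1r, was at 1055 in high glucose and 2059 with DKK2, just under 2-fold, and the pan-leukocyte gene Ptprc at 24.05 in high glucose and 44.6 with DKK2. Osteopontin, Spp1, which macrophages and stromal cells both make, was at 20183 in high glucose and 78617 with DKK2 (3.9-fold). Another list, of osteoclast and lipid-laden macrophage genes, went both ways. Of its 20 measured genes 3 were higher (15.0%) and 2 lower (10.0%), against 5.08% and 4.85% of all genes. Its median was 0.33, and -0.20 by another probe, measured for 4 members. The lysosomal protease gene Ctss was at 1759.5 in high glucose and 6356 with DKK2. Of 30 lysosome genes, Ctss alone was called (3.33% higher, near the 5.08% of all genes).

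Of 24 measured chemokines, 9 were higher and 3 lower. The platelet chemokine genes had the largest upward differences, Pf4 at 310.0 in high glucose and 2230.4 with DKK2 and Ppbp at 6.78 in high glucose and 99.1 with DKK2. The monocyte attractants Ccl2 and Ccl7 were bright, at 5809 in high glucose and 15663 with DKK2 and at 3712 in high glucose and 8300.2 with DKK2. Ccl5, Ccl9, Ccl6, Ccl3 and Ccl4, which lie next to each other among measured genes of chromosome 11, were all higher, with log2 differences of 1.69, 1.81, 1.88, 1.55 and 1.54. Lower were the stromal chemokines Cxcl14 (2298 against 682), Ccl11 (293 against 97.7) and Cxcl13 (94.4 against 6.34), and Cxcl12 was close to 2-fold (16105 against 8397). The scavenging receptor of Cxcl12, Ackr3, was at 2828 in high glucose and 604 with DKK2 (4.68-fold lower). The macrophage markers were higher on the same array, and their part in the chemokine values was not tested.

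Among interleukin genes, Il1rl1, Il18r1 and Il18rap, neighbours on chromosome 1, were higher together. The receptor antagonist gene Il1rn was at 27.95 in high glucose and 117 with DKK2 and Il11 at 263 in high glucose and 679.9 with DKK2, both higher, as was the receptor gene Il10ra (17.4 against 35.3). The LIF receptor gene Lifr was at 1869.5 in high glucose and 483 with DKK2, with other probes from -0.99 to -0.20, and the shared subunit gene Il6st at 12956 in high glucose and 6156 with DKK2. The ligand of Il1rl1, Il33, stood at 555 in high glucose and 581 with DKK2 and did not differ by more than its technical SD. Of 24 interferon response genes, Oasl1 (209 against 861) and Rsad2 (75.5 against 262) were higher and Oas2 (525 against 190.2) was lower. That is 8.33% higher and 4.17% lower, near the 5.08% and 4.85% of all genes. Of 24 TNF and NF-kappaB genes 1 was called (4.17% higher, near the 5.08% of all genes). It was Tnfsf9, higher at 307 in high glucose and 700.0 with DKK2, and Tnf (17.2 against 23.7) and Icam1 (238 against 305) were within 2-fold.

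Complement and acute phase genes had 12 of 31 lower (38.7%, against 4.85% of all genes) and 5 higher. The classical pathway proteases C1ra and C1s1 were at 20260.2 in high glucose and 5309 with DKK2 and at 24832 in high glucose and 8610.1 with DKK2, with their neighbours C1rb and C1s2 on chromosome 6 lower too. Their inhibitor Serping1 was at 29490.2 in high glucose and 7589 with DKK2, factor B, Cfb, at 961 in high glucose and 192 with DKK2, and adipsin, Cfd, at 4272 in high glucose and 429 with DKK2 (9.96-fold). C4b (5743 against 2392), the pentraxin Ptx3 (1037 against 190.1), the endotoxin-binding Lbp (2879.5 against 818) and Saa3 (677 against 225) were lower. The higher ones were C1qa (69.1 against 264), C1qc (164 against 536) and the anaphylatoxin receptors C5ar1 (18.1 against 92.8) and C3ar1 (50.3 against 126), which myeloid cells are known to express, and Saa4 (18.6 against 43.8). Saa1, Saa2 and Saa3 are close in sequence, and their probes may read each other.

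Matrix proteases included the largest family run of the comparison. Mmp13, Mmp12, Mmp1b, Mmp3, Mmp1a, Mmp10 and Mmp8 lie next to each other among measured genes of chromosome 9, and all 7 were higher. Stromelysin 2, Mmp10, was at 209 in high glucose and 3429.8 with DKK2 (16.4-fold), collagenase 3, Mmp13, at 977 in high glucose and 6778 with DKK2 (6.94-fold), and stromelysin 1, Mmp3, at 18245 in high glucose and 68430.2 with DKK2 (3.75-fold). The macrophage elastase Mmp12 (40.03 against 94.99), the neutrophil collagenase Mmp8 (4.46 against 20.7) and the collagenases Mmp1a (27.9 against 211) and Mmp1b (11.3 against 77.3) were higher too, and the last pair are near copies. The gelatinases Mmp2 and Mmp9, on other chromosomes, differed by 0.08 and -0.83. The inhibitors were lower or within 2-fold: Timp3 was at 22442 in high glucose and 9284 with DKK2, Timp4 at 262 in high glucose and 81.9 with DKK2, Timp1 at 34011 in high glucose and 39751 with DKK2 and Timp2 at 264096 in high glucose and 264863 with DKK2. The aggrecanase group was lower, with Adamts15 at 1475 in high glucose and 191 with DKK2, Adamts5 at 609 in high glucose and 92.6 with DKK2, Adamts9 at 1123 in high glucose and 309 with DKK2 and Adamts1 at 14209.9 in high glucose and 6232 with DKK2, whereas Adamts7 was higher (92.4 against 278). Mmp28 was higher with the probe used (2.14-fold) and lay below 0 with another (a log2 difference of -0.42). The plasminogen activator gene Plau was lower (539 against 245) and its inhibitor Serpinb2 higher (111 against 333).

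The letters TGANTCA of the AP-1 site were found in 7 of 23 protease and inhibitor genes with a promoter, 30.4%, against 7.45% of measured genes and 13.0% of the 706 higher genes there. They were in Mmp3, Mmp7, Mmp10, Mmp12, Mmp13, Plaur and Serpinb2, 5 of which were called. Neighbouring Mmp genes descend from shared copies, so these matches are not independent. The same letters were in 0 of 8 EGF family promoters and 0 of 15 ERK feedback promoters. The stretches of the 3 genes with the largest differences among those with a match before the start are shown, with the match in capitals.
Mmp10: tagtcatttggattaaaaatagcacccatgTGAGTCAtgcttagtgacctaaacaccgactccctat
Mmp13: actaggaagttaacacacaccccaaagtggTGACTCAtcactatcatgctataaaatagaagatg
Mmp3: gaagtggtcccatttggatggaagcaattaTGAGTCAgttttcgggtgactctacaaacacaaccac

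They lay at chr9:7502249-7502315 (plus strand), chr9:7272449-7272513 (plus strand) and chr9:7445746-7445812 (plus strand), with the match 56, 28 and 39 bases before the start. The genes of AP-1 and related early factors differed among themselves. Atf3 was at 683 in high glucose and 5328 with DKK2 (7.8-fold) and Jun at 12577 in high glucose and 26254 with DKK2, while Fos differed by 0.12, Fosl1 by 0.55 and Egr1 by -0.68, and the flow-responsive Klf2 was lower (3241 against 1359.7).

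Structural matrix genes were more often lower than higher. Of 23 matricellular genes 10 were lower (43.5%, against 4.85% of all genes) and 1 higher, with a median of -0.64. That median was -0.12 with a signal of at least 100 on both arrays and 0.22 by another probe, measured for 6 members. Cartilage oligomeric matrix protein, Comp, was at 3749 in high glucose and 335 with DKK2, Thbs1 at 67953 in high glucose and 31433 with DKK2, Thbs4 at 5544 in high glucose and 1789 with DKK2, and Sparcl1 at 31110.1 in high glucose and 7557 with DKK2. Fibronectin, Fn1, and Sparc differed by 0.13 and -0.12. Of 29 proteoglycan and hyaluronan genes 8 were lower. Ogn, a small leucine-rich proteoglycan, was at 66584 in high glucose and 8981 with DKK2 (7.41-fold), and its neighbours on chromosome 13, Omd (1819.9 against 365), Aspn (1410.2 against 496) and Ecm2 (50.6 against 19.02), were lower with it. Decorin (Dcn) was within 2-fold (-0.54). The hyaluronan synthase gene Has1 was higher, at 209 in high glucose and 1107 with DKK2 (5.3-fold), and versican, Vcan, at 1661 in high glucose and 3977 with DKK2, while Has2 differed by -0.76.

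In the elastic fibre list 5 of 22 genes were lower, among them Mfap4 at 2441 in high glucose and 122 with DKK2 (19.99-fold), lysyl oxidase, Lox, at 4757 in high glucose and 1945 with DKK2, and Loxl2 at 2094 in high glucose and 524 with DKK2. Elastin, Eln, differed by 0.17. The main fibrillar collagens lay below 0 within 2-fold, Col1a1 at -0.76, Col1a2 at -0.31 and Col3a1 at -0.47, and Col5a2, which trims fibril width, was lower (1319 against 457). Among other collagens Col8a2 differed by -5.54 with the probe used, the lowest value of any list member after adiponectin, but by 0.45 with another probe, so no direction is given for it. In basement membranes, Lama2 (1902 against 766) and Nid2 (3036 against 936) were lower.

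Integrins differed in both directions, with 7 of 21 higher (33.3%) and 3 lower (14.3%), against 5.08% and 4.85% of all genes. The leukocyte chains Itgb2 (175 against 563) and Itgax (69.1 against 178) were higher, and Itgal was too (1.57), although another probe differed by 0.08. Itgb7 had the largest difference, at 343 in high glucose and 3332 with DKK2 (9.71-fold), and the collagen receptor chain Itga2 (26.9 against 58.4) and the laminin receptor chains Itga6 (3019.7 against 7566) and Itga7 (652 against 1716) were higher. The collagen receptor chain Itga11 was at 953 in high glucose and 173 with DKK2, and Itga8 (817 against 275) and Itga9 (324 against 114) were lower. Keratin 18, Krt18, was at 120.2 in high glucose and 1742 with DKK2 (14.5-fold), and its partner Krt8 was well above background only with DKK2, at least 3.60-fold higher. Of 23 epithelial genes 6 were higher, including Krt7 (13.3 against 39.8), Krt19 (84.7 against 194) and Pkp2 (192 against 455), and 1 was lower, Epcam, which was dim (9.74 against 4.07). Mesothelin, Msln, was at 647 in high glucose and 3376 with DKK2, with 4 of 10 mesothelial genes measured and Wt1 not among them.

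Of 29 fibroblast genes 9 were lower (31.0%, against 4.85% of all genes) and none higher. Of 24 smooth muscle genes 4 were lower (16.7%) and 1 higher (4.17%, against 5.08% of all genes). Dermatopontin, Dpt, was at 603 in high glucose and 94.2 with DKK2, Pi16 at 2209 in high glucose and 520.3 with DKK2, Clec3b at 698 in high glucose and 75.3 with DKK2, and periostin, Postn, at 417 in high glucose and 76.7 with DKK2. Widely used fibroblast genes such as Pdgfra (-0.62), Thy1 (-0.24) and Lum (-0.49) were within 2-fold. In smooth muscle, Acta2 (3.19-fold) and Myl9 at 25168 in high glucose and 8341 with DKK2 were lower, with Myocd (21.9 against 7.48), while Tagln differed by -0.22 and Cnn1 by -0.69. In skeletal muscle, the perinatal and fast myosin genes Myh8 (302 against 21.2) and Myh1 (151 against 14.9), myoglobin, Mb (81.3 against 5.11), and the fusion factor gene Mymx (43.4 against 4.64) were more than 8-fold lower. With normexp background correction the log2 differences of Myh8, Myh1 and Mb were -2.56, -1.91 and -1.73, each short of 8-fold. The transcription factors Myod1 (0.17) and Pax7 (0.34) were not called. Fat cell genes were split: perilipin, Plin1, was at 198 in high glucose and 15.2 with DKK2, resistin, Retn, at 155 in high glucose and 28.5 with DKK2, and Lpl at 4829.6 in high glucose and 1311 with DKK2, but the lineage factor gene Pparg differed by -0.78 and Plin2, a general lipid droplet gene, by 0.86. Ucp1 was dim and higher (5.79 against 27.8). Adrb3 was lower with the probe used (-2.25) and lay above 0 with another (0.16).

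Among imprinted growth genes, none of 17 was higher and 6 were lower, 35.3%, against 4.85% of all genes. Dlk1, Meg3 and Mirg, from the Dlk1-Dio3 domain, were lower together with Dio3, a thyroid hormone inactivating enzyme: Meg3 was at 28221 in high glucose and 7191 with DKK2, Dio3 at 2486 in high glucose and 321 with DKK2 and Mirg at 1448 in high glucose and 603 with DKK2. Cdkn1c is given above. Plagl1 was at 14098 in high glucose and 4637 with DKK2, with other probes from -1.64 to 0.03. Igf2 differed by -0.56, and Gnas (0.06) and Peg3 (-0.44) were within 2-fold.

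Endothelial genes were lower in 8 of 28 cases (28.6%, against 4.85% of all genes) and higher in 1, with a median of -0.26. Their sum was 48843 in high glucose and 85162 with DKK2. A sum over probes follows its brightest one, here Cd34, at 38532 in high glucose and 74086 with DKK2, and does not describe the list. Lower were Clec14a (105 against 33.4), Robo4 (221 against 72.8), Sox18 (35.8 against 11.98), Rasip1 (75.01 against 27.4), claudin 5, Cldn5 (72.8 against 30.6), Icam2 (194 against 84.4), the angiopoietin receptor gene Tek (49.4 against 22.5) and the VEGF receptor gene Flt1 (229.6 against 113), and higher was Sox7 (61.3 against 129). Cdh5 was close to 2-fold lower (-0.89), while Pecam1 (0.22), Kdr (0.23), Eng (0.21) and Vwf (0.58) lay above 0. With a signal of at least 100 on both arrays the median was 0.21, which has the opposite sign.

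Of the vessel growth factors, Angpt1, which activates Tek, was at 216 in high glucose and 433 with DKK2 (2.00-fold) and its counterpart Angpt2 at 742 in high glucose and 426 with DKK2 (-0.80). The lymphatic receptor gene Flt4 (6.05 against 20.1), Angptl2 (311 against 665) and Angptl7 (21418 against 43817) were higher, Angpt4 (33.5 against 12.4) and Angptl1 (18.9 against 6.87) were lower, and Kdr was at 3835 in high glucose and 4510.3 with DKK2. The endothelial nitric oxide synthase gene Nos3 was at 194 in high glucose and 153 with DKK2, within 2-fold (-0.35). Downstream of nitric oxide, the guanylate cyclase subunit gene Gucy1a1 was lower (29.5 against 7.59), the kinase gene Prkg1 was 2.00-fold lower (1308 against 653) and Prkg2 was higher (4388 against 9943). The natriuretic peptide receptor gene Npr3 was lower (143 against 27.6), and the phosphodiesterase gene Pde5a, the target of sildenafil, differed by 0.53. Of 27 genes of endothelin, angiotensin and prostaglandin signalling, 4 were lower and 4 higher, 14.8% each, against 4.85% and 5.08% of all genes. The prostaglandin receptor gene Ptger1 was lower (367 against 171), the angiotensin receptor gene Agtr1a was at 1083 in high glucose and 213 with DKK2, the thromboxane receptor gene Tbxa2r at 512 in high glucose and 102 with DKK2, the prostaglandin E receptor gene Ptger3 at 99.03 in high glucose and 12.6 with DKK2, and the endothelin receptor gene Ednra, just under 2-fold, at 1075 in high glucose and 538 with DKK2. The cyclooxygenase genes Ptgs1 and Ptgs2 were higher, at 9391 in high glucose and 28078 with DKK2 and at 2931 in high glucose and 6786 with DKK2, as were Ednrb (76.4 against 207) and Ptgfr (987 against 2503).

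Guidance and neurotrophic genes were lower more often than higher, beside 4.85% lower and 5.08% higher of all genes. Of 39 axon guidance genes 7 were lower, led by Robo2 (512 against 119) and Sema3d (219 against 57.1), and 3 were higher, Robo3 (249 against 801), Sema4d (36.2 against 81.01) and Plxna1 (549 against 1129.7). Of 22 neurotrophic genes 5 were lower and 2 higher. The ligand gene Gdnf was at 443 in high glucose and 1104 with DKK2 and its receptor gene Gfra1 at 93.5 in high glucose and 269 with DKK2, both higher, while Gfra2 (1906 against 677), midkine, Mdk (1339 against 324), and the neurotrophin receptor gene Ngfr (139.8 against 56.3) were lower. Bdnf was within 2-fold (-0.32).

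Stress lists differed in how many members were called, beside 5.08% higher and 4.85% lower of all genes. In the list of unfolded protein and amino acid stress, Atf3, Chac1 (935 against 3264) and Ddit4 (10367 against 22991) were higher of 30 genes, and the chaperone Hspa5 (-0.02) and the regulator Atf4 (0.10) stayed near 0. The amino acid response element TGATGCAA was found in 4 of 28 of these genes, 14.3%, against 0.87% of measured genes. Of 19 heat shock chaperone genes 3 were higher and none lower, Hspa4l (999 against 3738), Hsph1 (6122 against 14879) and Hspa1a (419 against 989.8). Of 32 antioxidant genes none was higher, and Gpx3 (1458 against 704) and the iron exporter gene Slc40a1 (1609 against 776) were lower; TGACNNNGC, the core of the antioxidant response element, was in 28.0% of 25 promoters, against 16.0% of measured genes. Of 24 p53 target and BCL2 family genes 2 were higher, Mdm2 at 36868 in high glucose and 79212 with DKK2 and Pmaip1 at 4339 in high glucose and 11022 with DKK2, and Bmf was lower (518 against 230.4). The ERK feedback genes Dusp1 (1429 against 4513) and Spry1 (6563 against 1664) differed in opposite directions.

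Some genes were above background on 1 array only, and their fold is a lower limit. It divides the bright value by the dim one, or by the dimmest signal called above background on the dim array where that is larger. DKK2 was the bright array for 336 such genes, and the limit reached 2-fold for 124. High glucose was the bright array for 445, and the limit reached 2-fold for 112. The carbonic anhydrase gene Car3, abundant in fat and muscle, was lower at least 159.7-fold, from 578 in high glucose to a probe not well above background with DKK2. The fast myosin gene Myh2 was at least 28.3-fold lower. On the higher side, arginase 2, Arg2, was at least 15.8-fold higher, with 50.6 with DKK2, and the protease inhibitor genes Wfdc16 and Spink6 were also among the 8 largest limits.

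By symbol, families of at least 30 measured genes differed in how often members were called. The largest shares higher were in the Kif motor genes, 8 of 36 (22.2%), and the keratins, 7 of 43 (16.3%). The largest shares lower were in the collagens, 5 of 37 (13.5%), and in symbols of C and a number, which include complement genes, clone names and others, 8 of 61 (13.1%). Olfactory receptors, a family with little expression outside the nose, had 3.46% higher and 2.31% lower of 433 measured genes.

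The normal glucose array gives the level of the leading genes in 5 mmol glucose; a comparison of high with normal glucose would share the high glucose array used here, so the values are only set side by side. Its scaled signal was 780 for Adipoq, 41470 for Dlk1 and 33059 for Meg3, each nearer to high glucose than to DKK2. Other lower genes stood elsewhere. Hp was at 251 and Saa2 at 10.2 in normal glucose, each nearer to DKK2 than to high glucose. Cfd, at 1540, and Plin1, at 59.7, lay between high glucose and DKK2. Il1rl1 was at 4099, Mmp10 at 182 and Cck at 11734 there, all below the signal of both other arrays. Mvd was at 340 and Aurka at 637, against 227 and 712 in high glucose. Lgr5 was at 1629, between the 3182 of high glucose and the 334 with DKK2.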

How the data were processed

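Pooled RNA of 3 conditions was hybridised to 1-colour mouse arrays, and the deposited scanner output gives intensity per spot from Feature Extraction 11.5.1.1, with a probe design on mm9, per the file headers. The processed intensity is background-subtracted, per the file headers; it was divided by each array's 75th percentile and taken to log2. Spots of a probe were averaged, a probe was kept if at least 50% of its spots were well above background, and the gene took its brightest probe over the 3 arrays. Names came through accessions in a RefSeq table of build GRCm38.p6, used for names and order only. The normexp alternative (limma 3.58.1, R 4.3.3) used median signal and local background. Python 3.11.15 with pandas 2.3.3 and numpy 2.4.6 did the rest, and simulated data served to test the counting. With 1 array per group, no test was run, and the number of arrays limits the precision.

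Members and lists were chosen with earlier results of these data known. Named genes were taken from the 30 largest upward and 30 largest downward differences that were 2-fold in both settings with all probes on 1 side, the 8 largest limits per side, list members 2-fold apart or, failing these, the outermost or brightest, 20 genes of interest, and symbol families of at least 30 genes; not every one is printed. Genes with disagreeing probes, promoters of the mitosis and protease lists, and some list members within 2-fold were chosen after their values were seen. Some genes are not reported here.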

Additional observations from a re-analysis of the deposited data

How the results depend on the processing

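No paired analysis was possible because each condition had 1 array, and no array could be left out. Of 905 genes higher and 865 lower, 508 and 476 passed 2-fold after normexp background correction, 512 and 502 of 13290 genes with a signal of at least 100, and, chosen after seeing the data, 210 and 192 of 4623 genes by another probe. A 1.5-fold limit gave 2330 and 2012, a 3-fold limit 284 and 321, and no filter gave 1350 lower. The other settings kept both counts within 1.5 times. Sign changes of list medians are given for lists at least 0.20, the median technical SD, from 0. With a signal of at least 100, 10 of 79 medians changed sign, 3 of them of such lists, to -0.14 for Wnt ligands, 0.0036 for Wnt targets and 0.21 for endothelial genes. By another probe 23 of 78 did, 7 of them of such lists, but these medians cover only the members with another measured probe. They were -0.37 for secreted Wnt antagonists (1 member), 0.0235 for Notch (5), -0.20 for osteoclast genes (4) and 0.0718 for smooth muscle (6). For proteoglycans (5 members) the median was 0.11, for matricellular genes (6) 0.22 and for carbonic anhydrases and sulfotransferases (4) -0.0536. Single genes changed sign by another probe: Adrb3 to 0.16, Col8a2 to 0.45 (also with the brightest probe over 2 arrays), Mmp28 to -0.42 and Tnfrsf19 to 0.28. The cause was not tested. Dim probes limit the rest, since signal near background sets their error.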

Other observations

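Probes without a gene name in the RefSeq table were not part of the comparison. Of 8954 such probes well above background on both arrays, 326 (3.64%) were at least 2-fold higher with DKK2 and 327 (3.65%) at least 2-fold lower.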
